A study of Rattus norvegicus with 9 samples.

Results

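The genes described here encode the machinery with which osteoclasts dissolve bone mineral and cut bone collagen: Acp5, Ctsk, Tcirg1, Atp6v0d2, Clcn7, Ostm1, Car2, Snx10 and Plekhm1. They were chosen by name, as the rows of the deposited count and FPKM tables with these symbols, and all 9 were found among the 23026 genes of the tables. None of them moved past the thresholds that the study's results section gives (unadjusted p under 0.05 and absolute log2FC over 1) in any comparison. Its methods section gives an absolute log2FC over 0.58 instead, and with that 1 member passed in 1 comparison, Snx10 in OVX-AS-IV-High compared with Sham. The share of all genes past that fold was not counted. In that comparison 17.6% of all genes tested had an unadjusted p under 0.05. The values nevertheless differed in kind between the genes. Ctsk, Atp6v0d2 and Acp5 varied widely between rats of the same group, Snx10 was higher in every library of either ovariectomized group than in every Sham library, and Clcn7 and Plekhm1 varied little. Of all genes tested, 23.3% had groups that did not overlap in OVX compared with Sham. The share was 19.9% in OVX-AS-IV-High compared with Sham.

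An osteoclast is a large cell with many nuclei, formed by fusion of precursors of the monocyte lineage, that seals off a patch of bone and makes it acidic. Carbonic anhydrase II, the product of Car2, supplies protons from carbon dioxide and water. The vacuolar proton pump, with the a3 subunit from Tcirg1 and the d2 subunit from Atp6v0d2, moves them out, and the exchanger encoded by Clcn7 with its partner Ostm1 carries chloride alongside. The acid dissolves the mineral, after which cathepsin K, the product of Ctsk, cuts the exposed collagen. Acp5 encodes tartrate-resistant acid phosphatase (TRAP), the classic stain of osteoclasts, while the sorting nexin Snx10 and the adaptor Plekhm1 act in the traffic of lysosomes toward the bone surface. Loss of Tcirg1, Clcn7, Ostm1, Car2, Snx10 or Plekhm1 causes osteopetrosis, a disease of bone that is not resorbed.

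Bone of female Sprague–Dawley rats, bought at 8 weeks of age, was measured by poly(A) mRNA sequencing in 3 groups with 3 libraries each, which the labels call biological replicates. Sham rats kept their ovaries and lost only nearby fat, and received the vehicle CMC-Na. OVX rats, labelled PMOP for postmenopausal osteoporosis, lost both ovaries and received vehicle. OVX-AS-IV-High rats lost both ovaries and received astragaloside IV (AS-IV), a saponin of Astragalus root, by gavage at 80 mg/kg for 8 weeks from week 6 after surgery. In the labels the CMC-Na of Sham replicates 1, 2 and 3 is given as 1%, 2% and 3%, whereas the methods give 1% for all. The libraries held 34874880 to 37298250 counts. Because RNA of bulk bone tissue was measured, fewer osteoclasts and less RNA per osteoclast cannot be told apart in any value below. Genes that define osteoclasts or their precursors were all present, at levels that differed widely. The fusion proteins Dcstamp and Ocstamp lay at 6.9–19.4 and 2.2–5.3 CPM (counts scaled to a common library size with TMM), the RANKL receptor Tnfrsf11a at 5.5–14.9 CPM and the calcitonin receptor Calcr at 0.4–2.6 CPM. The osteoclast transcription factor Nfatc1 lay at 40.4–48.2 CPM, the integrin subunit Itgb3 at 44.4–131.6, the M-CSF receptor Csf1r at 84.4–200.2 and the myeloid factor Spi1 at 118.6–155.4, of which Csf1r and Spi1 are also expressed by other myeloid cells and Itgb3 by megakaryocytes.

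Promoters are shown for the members whose window held the M-box, the letters bound by Mitf, a transcription factor of osteoclasts known to act on Acp5 and Ctsk. RefSeq promoters of assembly GRCr8 were found for 7 of the 9 members, in 8 windows, and the 250 bases before each start were searched on both strands. TCATGTG stood in 3 of these 8 windows, against 3.07% of all 33469 promoter windows of the same length. Capitals mark the motifs, and each sequence ends at the base before the start of transcription. The sequences lie at chr2:185747298-185747547 on the plus strand for Ctsk, at chr8:28943930-28944179 on the minus strand for the downstream start of Acp5 and at chr10:14656011-14656260 on the plus strand for Clcn7.
Ctsk: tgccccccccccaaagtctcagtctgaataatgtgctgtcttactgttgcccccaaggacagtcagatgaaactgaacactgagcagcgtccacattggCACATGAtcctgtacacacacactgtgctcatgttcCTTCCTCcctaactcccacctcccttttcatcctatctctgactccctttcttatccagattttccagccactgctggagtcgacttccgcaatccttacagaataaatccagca
Acp5: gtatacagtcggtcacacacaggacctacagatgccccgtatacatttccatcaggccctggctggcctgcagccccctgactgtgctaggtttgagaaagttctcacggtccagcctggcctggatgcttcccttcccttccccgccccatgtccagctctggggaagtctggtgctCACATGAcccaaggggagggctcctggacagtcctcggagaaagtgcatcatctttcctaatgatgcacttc
Clcn7: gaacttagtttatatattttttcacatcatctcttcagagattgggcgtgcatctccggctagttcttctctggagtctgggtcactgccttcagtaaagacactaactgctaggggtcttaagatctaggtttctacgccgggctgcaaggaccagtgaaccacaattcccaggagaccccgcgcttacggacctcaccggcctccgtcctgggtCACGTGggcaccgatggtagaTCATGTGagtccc
The M-box begins 151 bases before the start in Ctsk and 72 in Acp5, read on the opposite strand in both, and 13 in Clcn7, read on the same strand. Clcn7 also held CACGTG, the E-box of the related factors Tfeb and Tfe3, beginning 34 bases before the start, a motif found in 5.59% of all windows. Ctsk held GAGGAAG, a PU-box, beginning 115 bases before the start on the opposite strand, against 10.2% of all windows. No motif overlapped another. The AP-1 letters TGACTCA were in 0 of the 8 windows and in 4.05% of all windows. These matches describe letters only, and no binding was measured.

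The level of each gene in the 9 libraries was compared per transcript length, as FPKM. Car2 had the highest mean, at 952 FPKM, followed by Ctsk at 599 and Acp5 at 238. Tcirg1 came next at 46.9, and then 4 genes close together: Snx10 at 21.3, Atp6v0d2 at 18.7, Ostm1 at 17.3 and Clcn7 at 16.5. Plekhm1 was lowest, at 6.96 FPKM. In this order Ctsk exceeded Acp5 in 9 of 9 libraries, whereas Car2 exceeded Ctsk in 7, Snx10 exceeded Atp6v0d2 in 5, Atp6v0d2 exceeded Ostm1 in 5 and Ostm1 exceeded Clcn7 in 6. The ranges of Acp5 and Tcirg1, of Tcirg1 and Snx10, and of Clcn7 and Plekhm1 did not overlap, so only these neighbours were apart in all libraries at once. Of the pump subunits among the members, Tcirg1 exceeded Atp6v0d2 in FPKM in every library, by 1.74- to 8.77-fold.

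**Figure D1:**
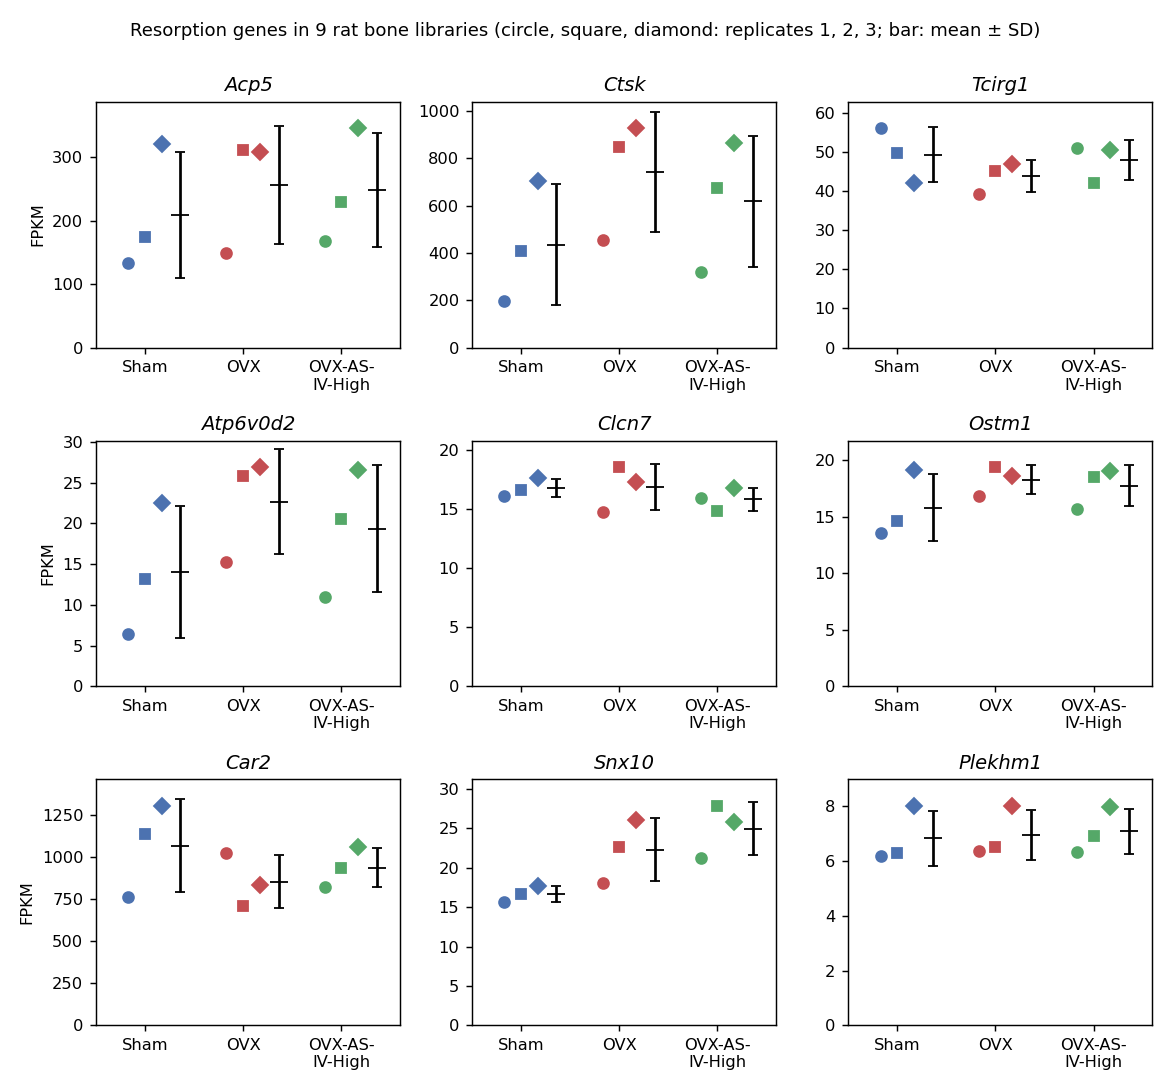
Level of each resorption gene, in FPKM on an axis from 0, in the 3 libraries of each group (symbols) with the mean and SD of each group (bar). Ctsk, Atp6v0d2 and Acp5 spread widely in every group, and the Snx10 libraries of both ovariectomized groups lie above 17.6 FPKM, the highest Sham value.

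Ctsk had 195, 408 and 703 FPKM in Sham replicates 1, 2 and 3, 453, 848 and 929 after ovariectomy alone, and 318, 674 and 865 after ovariectomy with AS-IV (the treated libraries), in the same order. The groups overlapped throughout, and Sham replicate 3 lay above OVX replicate 1 and above both OVX-AS-IV-High replicates 1 and 2. Acp5 had 133, 174 and 321 FPKM in the Sham libraries, 149, 312 and 309 in the OVX libraries, with 169, 230 and 346 in the treated ones. Its highest value among the 9 was in a treated library, its second highest in Sham, and replicate 1 was the lowest library of every group for both genes.

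Among the pump subunits, Atp6v0d2 had 6.39, 13.2 and 22.6 FPKM in the Sham libraries, 15.2, 25.9 and 26.9 in the OVX libraries, with 11.0, 20.5 and 26.6 in the treated ones. The order of its libraries was the order of Ctsk. Tcirg1 had 56.1, 49.6 and 42.1 FPKM in the Sham libraries, 39.1, 45.2 and 47.0 in the OVX libraries, with 51.0, 42.0 and 50.4 in the treated ones. It was highest in Sham replicate 1, the library in which Ctsk, Acp5 and Atp6v0d2 were lowest.

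For the chloride exchanger, Clcn7 stayed between 14.8 and 18.6 FPKM in all libraries. Its partner Ostm1 had 13.6, 14.7 and 19.2 FPKM in the Sham libraries, 16.9, 19.4 and 18.6 in the OVX libraries, with 15.7, 18.5 and 19.1 in the treated ones, so that Sham replicates 1 and 2 were the lowest of the 9. Car2 had 763, 1133 and 1303 FPKM in the Sham libraries, 1022, 705 and 833 in the OVX libraries, with 820, 933 and 1056 in the treated ones. Its 2 highest libraries were Sham, but Sham replicate 1 was the second lowest of all.

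Of the traffic genes, Snx10 had 15.6, 16.7 and 17.6 FPKM in the Sham libraries, 18.1, 22.6 and 26.1 in the OVX libraries, with 21.2, 27.8 and 25.8 in the treated ones. No library of either ovariectomized group was as low as the highest Sham library, although OVX replicate 1 was close to it. Plekhm1 stayed between 6.20 and 8.02 FPKM, and replicate 3 was its highest library in each group.

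The spread between replicates also differed among the 9 genes. The biological coefficient of variation (BCV), edgeR's estimate of the relative spread between replicates, was 0.414 for Ctsk, 0.384 for Atp6v0d2 and 0.341 for Acp5, above that of 85.8%, 83.1% and 78.5% of all genes tested. It was 0.119 for Clcn7, which is lower than that of most genes (12.2% lay below it), and between 0.138 and 0.203 for the other 5 members, against a median of 0.187 over all genes. From the lowest to the highest library, CPM spanned 4.84-fold for Ctsk, 4.28-fold for Atp6v0d2 and 2.64-fold for Acp5, but 1.24-fold for Clcn7 and 1.32-fold for Plekhm1. Differences between the 3 groups made up 68.8% of the variance of log2 CPM of Snx10 and between 3.77% and 27.6% of that of the other 8 genes. The same share was not computed over all genes, and groups of 3 libraries give a share above 0 even without a group effect.

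To ask whether ovariectomy altered the resorption genes, OVX was compared with Sham. Of the 9 members, 0 passed the thresholds, against 3.11% of all 16874 genes tested (525 genes). The number with an unadjusted p under 0.05 was 1, Snx10, against 16.4% of all genes (2775 genes), and Snx10 was also the only member whose OVX libraries all lay on the same side of all Sham libraries, against 23.3% of all genes. The median log2FC was 0.18 over the members and -0.01 over all genes tested. The median of the members was 0.011 without Sham replicate 1, 0.098 without OVX replicate 3, 0.12 without OVX replicate 2 and 0.35 without Sham replicate 3. By the edgeR quasi-likelihood test with Benjamini-Hochberg adjustment, 0 genes of the whole table had an adjusted p under 0.05, as by limma, whereas DESeq2 gave 790.

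In this comparison Snx10 was 1.31-fold higher in OVX (71.2 ± 13.2 CPM against 54.3 ± 3.96, SD, n = 3 each), with a log2FC of 0.39 (standard error 0.147, 95% interval 0.06 to 0.72, edgeR adjusted p = 0.242). Its unadjusted p of 0.0255 rose above 0.05 without Sham replicate 1 (0.0878), without OVX replicate 2 (0.0535) and without OVX replicate 3 (0.116). Ctsk was 1.67-fold higher on average (1038 ± 358 against 622 ± 367 CPM), with a log2FC of 0.74 and an interval from -0.36 to 1.84 (adjusted p = 0.452). Atp6v0d2 had a log2FC of 0.66 (-0.36 to 1.67) and Acp5 of 0.26 (-0.62 to 1.15). The intervals of these 3 genes reached above 1 and below 0, so neither a change past the fold threshold nor a decrease could be set aside at this spread. Without Sham replicate 3, Ctsk and Atp6v0d2 passed the thresholds, with log2FC of 1.27 (adjusted p = 0.162) and 1.18 (adjusted p = 0.153), and 5 members no longer overlapped between the groups. In that setting 6.2% of all genes passed the thresholds (1064 of 17174) and 48.2% had groups that did not overlap, so both shares were also higher over all genes than with all libraries. Without Sham replicate 1, the log2FC of Ctsk was 0.38 and that of Atp6v0d2 was 0.30.

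The remaining members had narrower intervals, all between -1 and 1. Tcirg1 had a log2FC of -0.20 (-0.49 to 0.10), Car2 of -0.35 (-0.83 to 0.13) and Ostm1 of 0.18 (-0.13 to 0.50). Clcn7, at -0.02 (-0.25 to 0.21), and Plekhm1, at 0.00 (-0.32 to 0.32), had the values closest to 0.

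To ask whether AS-IV altered these genes in ovariectomized rats, OVX-AS-IV-High was compared with OVX. Again 0 of the 9 members passed the thresholds, against 0.83% of all genes. The number of members with an unadjusted p under 0.05 was 0, against 6.45% of all genes, and 0 members had groups that did not overlap, against 12.7%. The median log2FC was -0.01 over the members, from -0.062 without OVX replicate 1 to 0.15 without OVX replicate 3, and -0.02 over all genes. Ctsk averaged 883 ± 386 CPM with AS-IV and 1038 ± 358 without, a log2FC of -0.23 (-1.33 to 0.86, edgeR adjusted p = 0.971). Atp6v0d2 had a log2FC of -0.20 (-1.20 to 0.81) and Acp5 of -0.01 (-0.90 to 0.87). Their intervals held values on both sides of 0. The replicate numbers come from the sample titles, and the paper divided the ovariectomized rats into groups at random. Set side by side by number, Ctsk and Atp6v0d2 were lower in the treated library for 3 of 3 numbers, which is not paired evidence. With the replicate number as a block, the log2FC of Ctsk was -0.29 (unadjusted p of 0.0974, adjusted p = 0.704) and that of Atp6v0d2 was -0.25 (unadjusted p of 0.188, adjusted p = 0.772). Snx10 had a log2FC of 0.20 (-0.13 to 0.53), and its mean was highest in the treated group. The intervals of Clcn7 (-0.29 to 0.18), Ostm1 (-0.32 to 0.30), Plekhm1 (-0.26 to 0.38), Tcirg1 (-0.13 to 0.46) and Car2 (-0.32 to 0.65) all lay within the fold threshold.

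The third comparison, of OVX-AS-IV-High with Sham, shares its Sham libraries with the first and its treated libraries with the second, so its values are not separate evidence. Of the 9 members, 0 passed the thresholds, against 3.15% of all genes, and 1, Snx10, had an unadjusted p under 0.05, against 17.6% of all genes. Snx10 was also the only member with groups that did not overlap, against 19.9%. It was 1.50-fold higher in treated rats (81.6 ± 10.2 against 54.3 ± 3.96 CPM, SD, n = 3 each), with a log2FC of 0.59 (standard error 0.148, 95% interval 0.26 to 0.92, edgeR adjusted p = 0.120) and an unadjusted p of 0.00297. Leaving out any library of the comparison gave a log2FC from 0.50 to 0.68. This log2FC lies just above the 0.58 of the methods section. DESeq2 gave Snx10 an adjusted p of 0.0131 here, and gave 951 of 22999 genes an adjusted p under 0.05. By edgeR 0 genes reached that, and by limma 4. Ctsk had a log2FC of 0.51 (-0.59 to 1.60), Atp6v0d2 of 0.46 (-0.55 to 1.47) and Acp5 of 0.25 (-0.63 to 1.14). Without Sham replicate 1 the log2FC was 0.15 for Ctsk and 0.11 for Atp6v0d2, and without Sham replicate 3 it was 1.03 and 0.98. The median over the members was 0.18, against -0.01 over all genes, and ranged from -0.023 without OVX-AS-IV-High replicate 3 to 0.34 without Sham replicate 3. It was 0.060 without Sham replicate 1.

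**Figure D2:**
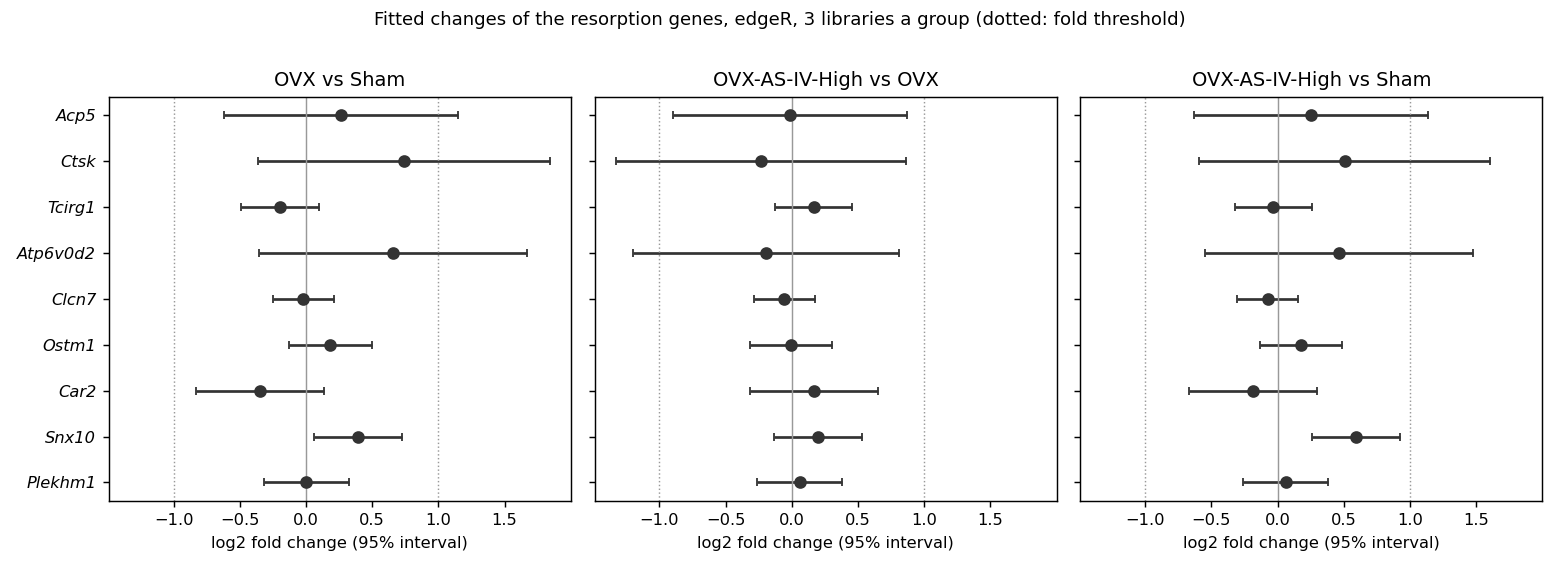
Fitted log2FC of each resorption gene (points) with its 95% interval (bars) in the 3 comparisons, from the edgeR fit of all 9 libraries. Dotted lines mark a log2FC of -1 and 1. The intervals of Ctsk, Atp6v0d2 and Acp5 are the widest in each comparison, and the interval of Snx10 lies above 0 in both comparisons with Sham (0.06 to 0.72 and 0.26 to 0.92).

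The members did not vary together as 1 block. Over the 9 libraries, log2 CPM of Ctsk followed that of Atp6v0d2 with Pearson's r of 0.997 and Spearman's rho of 1.00, and of the 16873 other genes tested, Atp6v0d2 was the most like Ctsk. The FPKM ratio of Ctsk to Atp6v0d2 stayed between 28.9 and 34.5, a 1.19-fold range, while each gene by itself varied over 4-fold. Ostm1 (r = 0.942, rho = 0.767, rank 82) and Acp5 (r = 0.914, rho = 0.867, rank 233) followed Ctsk closely as well. Plekhm1 (r = 0.712) and Snx10 (r = 0.703) did so loosely, Clcn7 (r = 0.411) and Car2 (r = 0.185) less, and Tcirg1 ran the other way (r = -0.506). Without the 2 libraries farthest from the median of Ctsk, Sham replicate 1 and OVX-AS-IV-High replicate 1, r was 0.996 for Atp6v0d2, 0.922 for Acp5 and 0.886 for Ostm1, but 0.196 for Tcirg1 and -0.453 for Car2. The inverse relation of Tcirg1 therefore rested on those libraries. These correlations describe genes measured in the same 9 libraries, whose composition differed: skeletal muscle transcripts summed to 747 to 11738 CPM. No p is given.

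The other genes most like Ctsk were Serping1 (r = 0.984), the C1 inhibitor of complement; Rab5c (r = 0.983), a GTPase of early endosomes; Rps18 (r = 0.981), a ribosomal protein whose near-identical copies in the genome can share reads; Spon1 (r = 0.978), a matrix protein; Eif3l and Xpr1 (both r = 0.977), a translation factor subunit and a phosphate exporter; Kiaa0040 (r = 0.976); and Dennd5b and Gnptab (both r = 0.973), the last an enzyme that tags lysosomal proteins. These were the 9 highest after Atp6v0d2. Atp6v0d2 was thus the only member among the 10 genes closest to Ctsk.

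**Figure D3:**
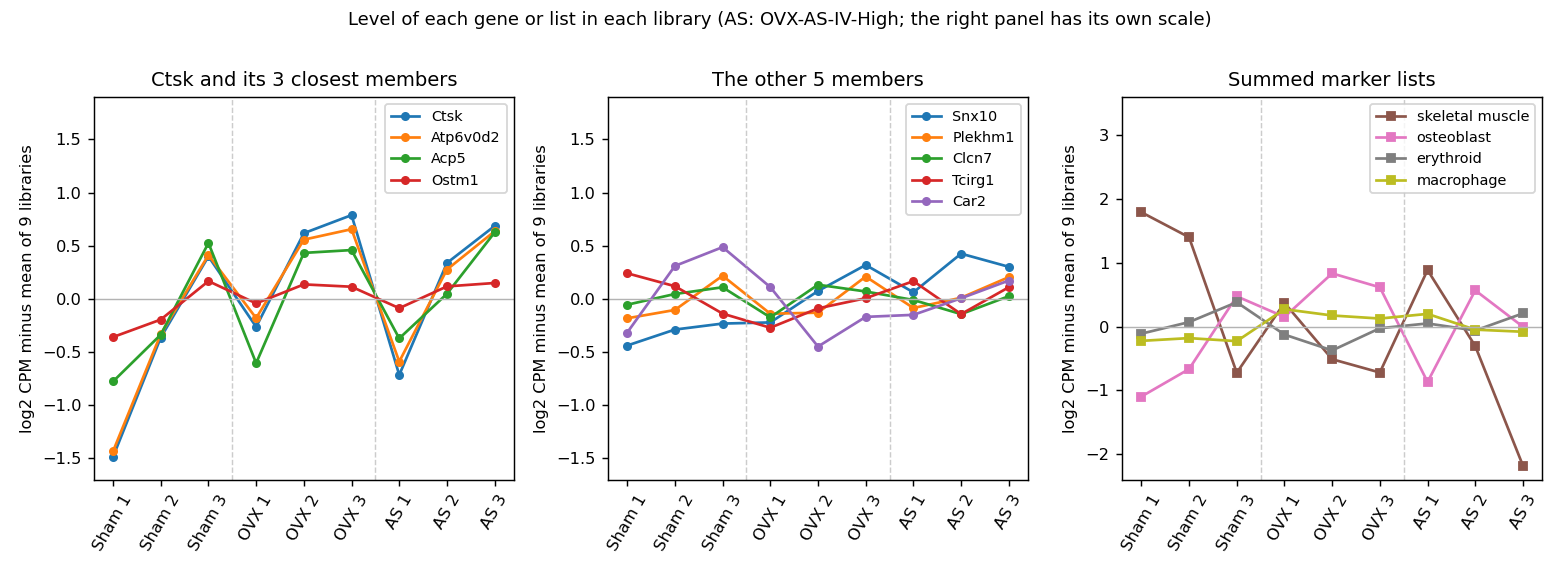
Log2 CPM of each resorption gene (left and middle) and of summed marker lists (right) in each library, as the difference from the mean of the 9 libraries. Lines only link the values of 1 gene or list. Ctsk and Atp6v0d2 lie nearly on top of each other, Tcirg1 and Car2 follow other paths, and the skeletal muscle sum (747 to 11738 CPM) is high where Ctsk is low.

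Several cell type marker lists moved with these genes. Skeletal muscle transcripts (14 of 15 listed genes in the table, all above 0 in every library) summed to 11738, 8944 and 2051 CPM in the Sham libraries, 4384, 2376 and 2056 in the OVX libraries, with 6262, 2740 and 747 in the treated ones. They were therefore most abundant in the libraries with least Ctsk, and their median r over 9 libraries was -0.863 with Ctsk, -0.865 with Atp6v0d2, -0.886 with Acp5 and -0.859 with Ostm1. With Plekhm1 it was -0.774, with Snx10 -0.641, with Clcn7 -0.345, with Car2 -0.180 and with Tcirg1 0.277. With muscle content as a covariate in the edgeR fit, the log2FC in OVX compared with Sham was 0.25 for Ctsk, 0.23 for Atp6v0d2, -0.16 for Acp5 and 0.29 for Snx10, whose unadjusted p of 0.0699 was then above 0.05. In OVX-AS-IV-High compared with Sham it was -0.10 for Ctsk, -0.07 for Atp6v0d2, -0.24 for Acp5 and 0.47 for Snx10 (unadjusted p of 0.0083). The direction of Acp5 thus turned in both comparisons with Sham, that of Ctsk and Atp6v0d2 in the second, and that of Snx10 in neither.

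Osteoblast transcripts (10 of 10 listed genes, all above 0) summed to 4564–13564 CPM in Sham libraries, 10840–17405 in OVX libraries and 5350–14475 in treated ones, with a median r of 0.694 with Ctsk and 0.712 with Ostm1. Adipocyte transcripts (6 of 6) summed to 409–633, 609–832 and 533–844 CPM, with a median r of 0.805 with Ctsk and 0.705 with Snx10. Macrophage transcripts (9 of 10) summed to 6536–6756, 8357–9248 and 7239–8790 CPM, of which lysozyme (Lyz2, mean 5250 FPKM), which neutrophils also express, made up 5812–8731 CPM. Without Lyz2 the sum was 413, 507 and 725 CPM in the Sham libraries, 517, 589 and 558 in the OVX libraries, with 466, 488 and 504 in the treated ones, and the groups overlapped. Of the 9 macrophage genes, 1 had groups that did not overlap in OVX compared with Sham, against 23.3% of all genes. The median r of macrophage genes was 0.556 with Ctsk, 0.614 with Acp5 and 0.201 with Snx10, but -0.496 with Tcirg1. B lineage transcripts (6 of 7) summed to 614–764, 1031–1068 and 718–986 CPM, and neutrophil transcripts (10 of 10, of which 1 was at 0 in a treated library) to 12118–17031, 14483–19319 and 16592–22017 CPM. With Ctsk, the median r was 0.660 for B lineage genes and -0.158 for neutrophil genes. The part of these cell types in the results was not tested.

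Car2 is also an abundant enzyme of red cells, and its r with the other members lay only between -0.255 and 0.466. Erythroid transcripts (12 of 12 listed genes, all above 0) summed to 53416, 60579 and 75167 CPM in the Sham libraries, 52891, 44528 and 56668 in the OVX libraries, with 59700, 55291 and 66597 in the treated ones. The lowest library was OVX replicate 2 for both Car2 and the erythroid sum, and the highest was Sham replicate 3 for both. The correlation of Car2 with erythroid genes had a median r of 0.803 and was above 0 for 12 of 12 genes. After removal of the group means, the median was 0.952. With Ctsk, the same genes had a median r of 0.491. How much of the Car2 mRNA came from osteoclasts was not tested.

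**Figure D4:**
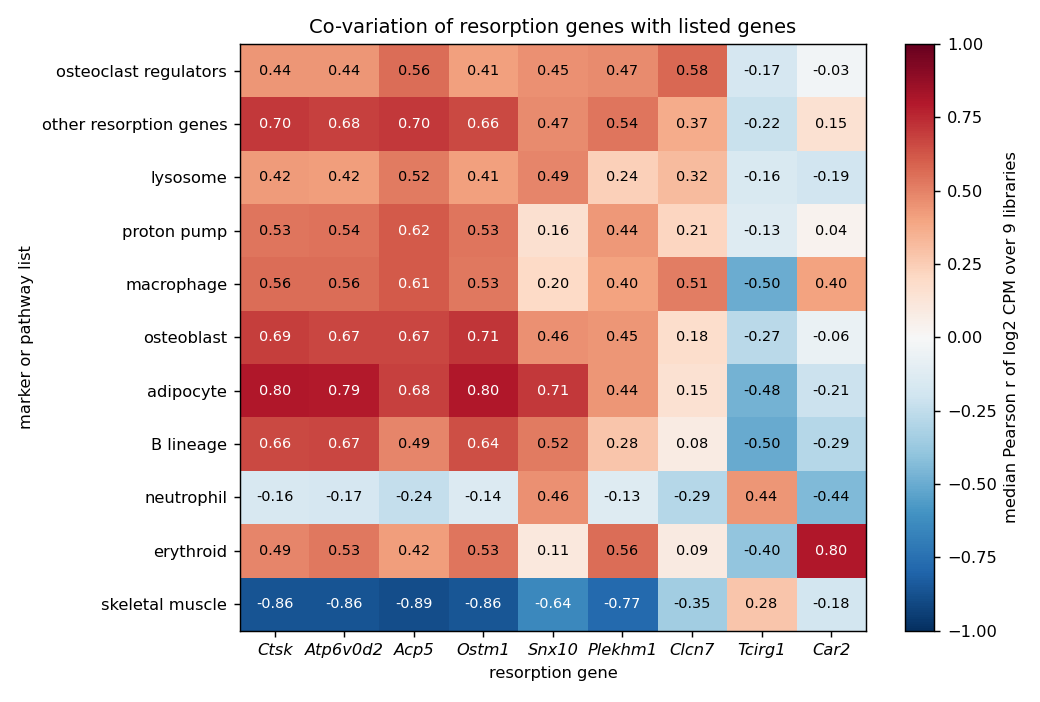
Median Pearson's r, over 9 libraries, between log2 CPM of each resorption gene (columns) and the genes of each pathway or marker list (rows), from -1 (blue) to 1 (red). Muscle genes are inverse to Ctsk, Atp6v0d2, Acp5 and Ostm1 (-0.89 to -0.86), and also to Plekhm1 (-0.77) and Snx10 (-0.64). The strongest value of Car2 is with erythroid genes (0.80).

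The remaining genes of the pathway were then counted. Those named below for an unadjusted p under 0.05 were chosen after their values were seen. Their edgeR adjusted p lay between 0.102 and 0.283 in the comparisons with Sham, whereas it was 0.652 to 0.723 for treated compared with OVX. The 3 genes with the highest FPKM of each list are named as well. The share of all genes with an unadjusted p under 0.05, against which each count is to be read, was 16.4% in OVX compared with Sham, 6.45% in OVX-AS-IV-High compared with OVX and 17.6% in OVX-AS-IV-High compared with Sham. Of 21 other subunits of the vacuolar proton pump and its accessory proteins, 20 were tested. The kidney subunit Atp6v1b1 had at most 1 count in any library. In OVX compared with Sham, 0 of the 20 passed the thresholds, 3 had p under 0.05 and were higher and 2 were lower, with a median log2FC of 0.05. The higher genes were Atp6v1a, the catalytic subunit (log2FC 0.32), Atp6v1h, its regulator (0.31), and the accessory protein Atp6ap2 (0.48). The lower genes were Atp6v0a1, the a1 counterpart of Tcirg1 (-0.40), and Atp6v0b of the proton-carrying ring (-0.45). Atp6v1a had 29.0, 30.6 and 35.7 FPKM in Sham and 38.4, 39.1 and 43.4 in OVX, and Atp6v0a1 had 35.8, 35.3 and 32.7 in Sham and 28.0, 26.8 and 25.1 in OVX. The groups did not overlap for either gene, as for 6 of the 20 pump genes tested and for 23.3% of all genes. The most abundant subunits, Atp6v0c (mean 230 FPKM) and Atp6v1g1 (203 FPKM), had log2FC of 0.00 and 0.10. In OVX-AS-IV-High compared with OVX, 0 of 20 had p under 0.05. Compared with Sham, treated bone had 2 higher, Atp6v1a (0.37) and Atp6ap2 (0.76), and 3 lower. Atp6v0a1 (-0.29) and Atp6v0b (-0.36) were lower below the fold threshold, and 1 gene passed the thresholds: Atp6v1g2, the neuronal g subunit, fell (log2FC -1.08, adjusted p = 0.283) at a mean of only 0.213 FPKM. Its libraries held 13, 27 and 13 counts in Sham and 6, 12 and 8 in the treated group. Of all genes tested, 3.15% passed the thresholds in that comparison.

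Among 15 other genes of resorption, 0 passed the thresholds in any comparison. In OVX compared with Sham, 2 had p under 0.05, both higher: Mmp14, a membrane-bound matrix protease (log2FC 0.72), and the kinase Lrrk1 (0.29), and the median was 0.24. Mmp9, the gelatinase of osteoclasts and neutrophils, had a log2FC of 0.31 with an adjusted p of 0.310, and Rab7a, the late endosome GTPase with which Plekhm1 acts, of 0.02. Ckb, the creatine kinase abundant in osteoclasts, had 0.24 with an adjusted p of 0.622. In OVX-AS-IV-High compared with OVX, 0 of 15 had p under 0.05. Compared with Sham, the treated group had 2, both higher: Rab3d, a GTPase of vesicle secretion (0.38), and Mmp9 (0.33).

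Of 13 regulators of osteoclast formation in the table, 0 passed the thresholds. In OVX compared with Sham, the myeloid factor Spi1 (log2FC 0.25) and the RANK adaptor Traf6 (0.29) were higher and Fos, a subunit of AP-1 required for osteoclast formation, was lower (-0.75). Fos had 13.6, 16.4 and 20.8 FPKM in the Sham libraries, 6.40, 13.5 and 11.0 in the OVX libraries, with 14.6, 13.5 and 22.2 in the treated ones. In OVX-AS-IV-High compared with OVX, Fos was the 1 gene with p under 0.05 (0.74, adjusted p = 0.723); both comparisons use the same OVX libraries. Compared with Sham, treated bone had higher Spi1 (0.27) and Traf6 (0.30) and lower Tnfrsf11a (-0.69). Csf1r, the receptor for the growth factor M-CSF, had a log2FC of 0.36 in OVX compared with Sham, and the AP-1 family repressor Jdp2 of -0.08.

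Lysosomal genes, of which 20 of 21 were in the table, also had 0 past the thresholds. In OVX compared with Sham, those higher with p under 0.05 included the cathepsins Ctsh (log2FC 0.30) and Ctsz (0.28). The abundant members Psap (574 FPKM) and Ctsb (461 FPKM) had log2FC of 0.07 and -0.16. In OVX-AS-IV-High compared with OVX, 2 were higher, Ctsc (0.37) and the membrane protein Lamp2 (0.34). Compared with Sham, those higher with p under 0.05 included Lamp2 (0.61), Ctsc (0.53) and Ctsh (0.25), and the calcium channel Mcoln1 was lower (-0.29). Compared with Sham, the list had a median log2FC of 0.17 after ovariectomy alone and 0.11 with AS-IV.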

How the data were processed

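Poly(A) mRNA of rat bone was sequenced in 9 libraries. The authors trimmed low-quality reads, aligned with Tophat and Bowtie2 and quantified with eXpress; the submitters' processing notes name build mRatBN7.2. For each gene the authors deposited an unnormalized whole-number count and an FPKM value; the FPKM are the same counts rescaled by gene length and depth. The lengths implied by both tables agreed between the 9 libraries to within 0.21 bases for each member (1306 bases for Atp6v0d2 to 6162 for Plekhm1).

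Counts were tested with edgeR 4.0.16 (quasi-likelihood test, TMM, filter at a minimum count of 10, all 9 libraries in a single fit) in R 4.3.3, which left 16874 genes, 9 members included. Fold changes are in log2 units (log2FC), with Benjamini-Hochberg adjustment over all genes tested. The thresholds, p under 0.05 and absolute log2FC over 1, are those of the study's results section; its methods section gives an absolute log2FC over 0.58. The script was tested on simulated data. Correlations used log2 CPM with a prior count of 2. Log2 values below 0.005 in size are printed as 0.00. Plots used matplotlib 3.10.9 in Python 3.11.15 with pandas 2.3.3 and numpy 2.4.6.

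The members and lists were chosen with earlier results of these data known. The text names all members, the genes of the other pathway lists past the thresholds or among the 3 with the highest mean FPKM, and the 10 genes most like Ctsk. Genes with p under 0.05 and the ratios were added after the values were seen; some results of the lysosomal list are not reported here. Promoter coordinates are of GRCr8 and were not joined to counts. Groups came from the labels. The edgeR p-values rest on the spread between libraries within groups, pooled over the 3 groups and drawn toward that of other genes. An exact permutation test of 3 against 3 cannot give p below 0.1.

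Whether replicate numbers pair libraries was checked from the correlation of deviations from group means. It was 0.31, 0.158 and 0.13 between OVX and OVX-AS-IV-High. It was 0.2, -0.161 and 0.253 between Sham and OVX and 0.314, -0.158 and 0.435 between Sham and OVX-AS-IV-High. Of the 9 libraries, 7 deviated most like a library with their own number, so these values do not show that the numbers are without structure. The numbers come from the sample titles, and the paper divided the rats into groups at random. For that reason the numbers were not taken to pair rats. The main fit used no pairing, and the block is given as an alternative only. Alternatives were DESeq2 1.42.0, RLE size factors, no filter, limma 3.58.1 on log2(FPKM + 1), only the groups compared, the replicate number as a block, muscle content as a covariate, other thresholds and leaving out each library.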

Additional observations from a re-analysis of the deposited data

How the results depend on the processing

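Beyond leaving out libraries, 175 of 189 member values kept their direction and their side of the thresholds and 14 reversed. With muscle content as a covariate, the median log2FC over the members became -0.077 in OVX vs. Sham and -0.088 for the treated group vs. Sham; the log2FC turned to -0.16 for Acp5 and -0.12 for Plekhm1 in the first, and to -0.24 for Acp5, -0.10 for Ctsk, 0.021 for Tcirg1, -0.075 for Atp6v0d2 and -0.088 for Plekhm1 in the second. The other reversals were near 0: for Plekhm1 in OVX vs. Sham, -0.00018 by DESeq2, -0.00097 with RLE and -0.00101 without a filter; for Clcn7 there, 0.0029 by limma; for Ostm1 in OVX-AS-IV-High vs. OVX, 0.00425 by DESeq2, 0.0038 with RLE and 0.0059 without a filter. The cause was not tested. With p under 0.05 alone, 1 member was called in OVX vs. Sham (16.4% of all genes) and 1 for treated vs. Sham (17.6% of all genes). With an absolute log2FC over 0.58 as well, 1 was called in the latter, and the share of all genes there was not counted.

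With each library left out in turn, 138 of 162 member values kept direction and side, 22 reversed and 2 passed the thresholds. The members past the thresholds ranged from 0 to 2 in OVX vs. Sham, the 2 being Ctsk and Atp6v0d2 without Sham replicate 3, where 1064 of 17174 genes passed, against 525 of 16874 with all libraries. Members whose groups did not overlap ranged from 1 to 5 in OVX vs. Sham (28.4% to 48.2% of all genes), from 0 to 2 for treated vs. OVX (19.0% to 28.1%) and from 1 to 3 for treated vs. Sham (24.8% to 40.0%). The log2FC in OVX vs. Sham ranged from -0.080 to 0.068 for Clcn7 and from -0.12 to 0.13 for Plekhm1. In OVX-AS-IV-High vs. OVX it ranged from -0.32 to 0.19 for Acp5, -0.54 to 0.073 for Ctsk, -0.48 to 0.077 for Atp6v0d2, -0.14 to 0.0046 for Clcn7, -0.062 to 0.061 for Ostm1 and -0.027 to 0.18 for Plekhm1. In OVX-AS-IV-High vs. Sham it ranged from -0.054 to 0.70 for Acp5, 0.15 to 1.03 for Ctsk, 0.11 to 0.98 for Atp6v0d2, -0.13 to 0.060 for Tcirg1 and -0.023 to 0.19 for Plekhm1.

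With the replicate number as a block, 0 members passed the thresholds in all 3 comparisons. By unadjusted p under 0.05 alone the block gave 3 members (Ctsk, Atp6v0d2 and Snx10) instead of 1 in OVX vs. Sham, where it gave 21.8% of all genes, the same 3 instead of 1 for treated vs. Sham (22.0% of all genes), and 0 for treated vs. OVX (7.76%). In OVX vs. Sham this block gave Ctsk a log2FC of 0.86 (edgeR adjusted p = 0.0574) and Atp6v0d2 of 0.78 (adjusted p = 0.0792). For treated vs. Sham it gave Snx10 0.58 (adjusted p = 0.0604). For treated vs. OVX it changed no call. Of the 9 libraries, 7 deviated most like a library with their own number. Replicate 1 was also the library richest in muscle transcripts in every group. The mean log2 CPM of the muscle genes there was 9.40 in Sham, 8.04 in OVX and 8.51 in treated bone. Whether muscle content made libraries of the same number alike was not tested. The numbers were not taken to pair rats, so these block values are an alternative only. Counting error is small for these members, since Atp6v0d2, the lowest, still had 8.2 CPM in its lowest library. The spread between libraries within groups, pooled over the groups, sets the intervals.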

Other observations

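The balance of protease to phosphatase mRNA was examined after the values were seen. The FPKM ratio of Ctsk to Acp5 was 1.46, 2.35 and 2.19 in the Sham libraries, 3.03, 2.72 and 3.01 in the OVX libraries, with 1.89, 2.93 and 2.50 in the treated ones. Every OVX library lay above every Sham library, and the treated libraries overlapped both groups. With 3 libraries against 3, the smallest p that an exact permutation test allows is 0.1, and the ratio was chosen for this pattern, so no test is given.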
